A study of Drosophila melanogaster with 3 samples.

Results

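The regions described here are chromosome 4 of Drosophila melanogaster and the pericentric ends of 4 chromosome arms, and their members are the entries of the pooled HmgD candidate list whose summit fell in them. A candidate is an entry of a list prepared as input for IDR, a procedure that keeps peaks whose ranking is reproducible, so such a list holds background as well as peaks. A member had its summit anywhere on chromosome 4, above 22.0 Mb on 2L, above 22.9 Mb on 3L, below 4.2 Mb on 3R or above 22.0 Mb on X (dm6). In all, 218 of 30000 pooled candidates were members: 100 on chromosome 4, 26 on 2L, 30 on 3L, 14 on 3R and 48 on X. Of these, 34 were on the list of peaks that passed the IDR threshold, called IDR peaks below. Over all pooled candidates the lowest signal on that list was 114.706 and the highest off it 114.625. Being on it was therefore a level of pooled signal, and did not require support in every replicate.

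The samples were 3 biological replicates of 1 group of whole embryos, aged 0 to 24 h and of both sexes, from the fly strain HmgD-GFP. This transgenic line stably expresses an HmgD-eGFP fusion, with the tag at the C-terminus of HmgD, and chromatin was precipitated with an antibody against GFP. Whether untagged HmgD is also made in the line, and which promoter drives the fusion, is not given in the sources used here. A control experiment is named as possible by the labels and was not used here, and there was no second condition. The embryos were whole, so cell types and developmental hours were mixed in every sample.

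HmgD is an HMG-box protein, one of a class of abundant chromatin proteins that bind the minor groove with little sequence preference and bend DNA. Pericentric sequence is rich in transposons and satellite repeats, is packaged with the heterochromatin protein HP1 and holds few genes, some of which need that setting to be expressed. Chromosome 4, the small dot chromosome, is also coated with HP1 along much of its length and dense in repeats, yet carries many active genes, among them the Pax6 genes eyeless and twin of eyeless.

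The sequences at the strongest IDR peak of each region are printed first, and they were not compared with one another. For 2L the second strongest is given, because the strongest lay in untranslated sequence. Each is the plus strand of dm6 from the Release 6 reference, 50 bp either side of the summit and shortened where more than 30 bases would have been untranslated. Capitals mark the word CGATA on either strand, the core of the site of the insulator protein BEAF.
lncRNA:CR43437, chr4:424759-424859: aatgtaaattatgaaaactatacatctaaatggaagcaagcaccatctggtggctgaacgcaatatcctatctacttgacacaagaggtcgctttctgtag
MED21, chr3L:25115971-25116071: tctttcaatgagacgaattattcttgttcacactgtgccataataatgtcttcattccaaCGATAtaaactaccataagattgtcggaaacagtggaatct
Usp2, chrX:22455723-22455823: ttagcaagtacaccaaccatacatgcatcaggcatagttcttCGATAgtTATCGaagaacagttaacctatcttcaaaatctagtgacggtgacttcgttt
CG3651, chr2L:22121773-22121869: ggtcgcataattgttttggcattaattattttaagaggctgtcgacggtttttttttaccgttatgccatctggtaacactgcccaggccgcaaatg
spok, chr3R:3374263-3374363: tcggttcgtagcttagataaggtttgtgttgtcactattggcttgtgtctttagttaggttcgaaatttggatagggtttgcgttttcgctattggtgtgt

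Next come 2 promoters of ribosomal protein genes that lie inside these repeat-rich regions, shown because each carried an IDR peak. The promoter of RpL5 also carried one and is not printed. Not every such promoter did: the candidates at the promoters of RpL10 on 3L (signal 82.1) and RpL21 on 2L (51.3) were not IDR peaks. Neither printed window held CGATA. Within 100 bp either side of the summit, the word was present at RpS3A and RpL5 and absent at RpL15.
RpS3A, chr4:67189-67289: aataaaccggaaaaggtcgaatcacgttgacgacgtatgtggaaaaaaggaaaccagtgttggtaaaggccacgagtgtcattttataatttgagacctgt
RpL15, chr3L:27267153-27267253: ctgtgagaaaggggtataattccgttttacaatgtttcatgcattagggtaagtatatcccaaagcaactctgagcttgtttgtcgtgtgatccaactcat

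The last 3 are the IDR peaks of the regions that held the DRE word TATCGATA within 100 bp of the summit, all of them on chromosome 4. Capitals mark DRE and CGATA on either strand. The ey and PlexA windows are 201 bases long, and for Crk 30 bases around the word are given.
ey, chr4:696813-697013: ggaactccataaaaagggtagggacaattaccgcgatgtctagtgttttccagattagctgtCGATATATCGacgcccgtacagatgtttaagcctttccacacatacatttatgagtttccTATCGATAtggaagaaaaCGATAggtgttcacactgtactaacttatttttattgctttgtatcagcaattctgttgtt
PlexA, chr4:1027144-1027344: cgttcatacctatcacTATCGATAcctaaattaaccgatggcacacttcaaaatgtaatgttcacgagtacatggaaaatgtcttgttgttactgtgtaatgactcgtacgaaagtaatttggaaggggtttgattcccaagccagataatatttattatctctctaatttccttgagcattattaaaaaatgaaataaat
Crk, chr4:210239-210268: cgatcaaacatTATCGATAgtgtttctatg

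The replicate lists differed most in pericentric sequence, and this touches the results that follow. Replicate 1 held 368 candidates in the 4 pericentric regions, replicate 2 held 125 and replicate 3 held 89. On chromosome 4 the numbers were 122, 134 and 100. The gap widened away from the chromosome arms: more than 1000 kb inside the boundaries replicate 1 held 141 candidates, against 23 for replicate 2, 19 for replicate 3 and 23 pooled. Of the 490 candidates of replicate 1 in all 5 regions, 364 (74.3%) had no matching summit within 200 bp in the pooled list, against 45.2% of its candidates elsewhere. In replicate 2 this was 116 of 259 (44.8%, against 35.7% elsewhere), and in replicate 3 64 of 189 (33.9%, against 32.3%). Among its 2964 strongest, a set as large as the IDR list, replicate 1 had 51 of these 490 (10.4%), near the 10.5% that this set makes up of its whole list. Depth per replicate is unknown, because no read counts are in these lists.

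**Figure D1:**
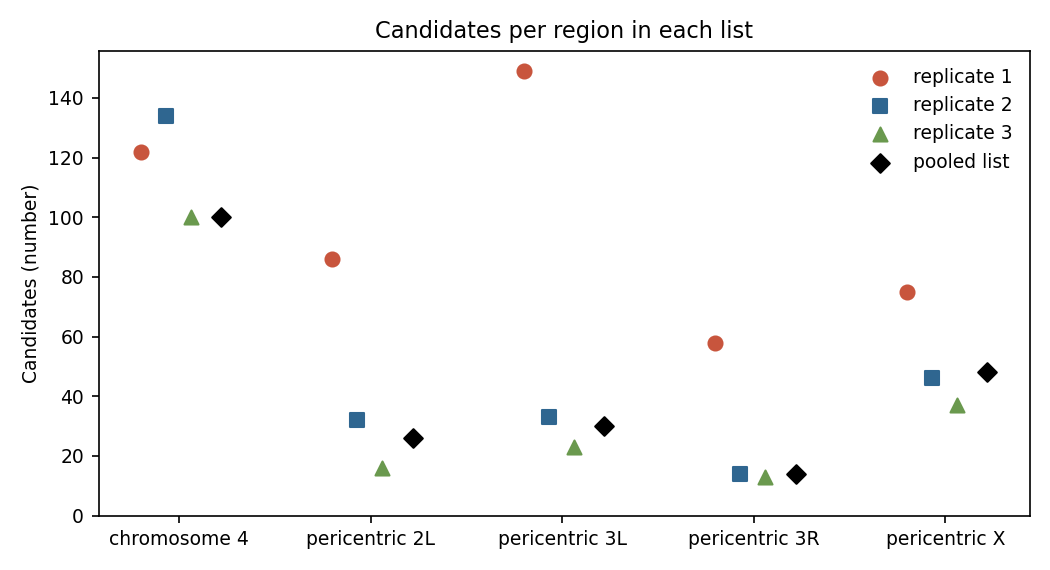
Number of candidates in each region (y axis) in the lists of replicates 1, 2 and 3 (circles, squares and triangles) and in the pooled list (diamonds). Replicate 1 stands above the others in all 4 pericentric regions, with 149 candidates on 3L against 33 and 23, whereas chromosome 4 holds between 100 and 134 in every list.

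Candidates were sparse in the regions, least so on chromosome 4. There were 75.1 pooled candidates per Mb of chromosome 4, 32.5 on pericentric X, 17.2 on 2L, 5.88 on 3L and 3.35 on 3R. The other sequence of the arms had 248 per Mb. It included the whole of arm 2R, from which no pericentric end was set apart. For IDR peaks the contrast between chromosome 4 and the arms was smaller: 16.5 per Mb of chromosome 4, or 67.7% of the 24.4 per Mb elsewhere, against 0.978 per Mb in the 4 pericentric regions together. How reads that map to several repeats were treated is not given in the sources used here, and its part in these densities was not tested. Counted per Mb of sequence that the reference does not mark as repeat, chromosome 4 held 34.6% as many candidates and 77.3% as many IDR peaks as the rest. In the replicates' own lists chromosome 4 held 91.7, 101 and 75.1 candidates per Mb and the rest 231, 248 and 248. The groups did not overlap and every replicate showed the same direction, but 3 paired replicates cannot give a two-sided exact permutation p below 0.25, which is the p found here.

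Within the pericentric regions candidates crowded toward the chromosome arms, except on X. On 2L, 17 of 26 members lay within 250 kb of the boundary, and on 3L 19 of 30. The same stretches held 33 of the 63 gene starts of pericentric 2L and 16 of the 79 of 3L. The part of gene density in this was not tested. On 3R all 14 lay within 1000 kb of the boundary, the deepest at 826 kb, and further in only replicate 1 had candidates, 21 of them. Deep inside 3L, IDR peaks lay at the promoters of MED21, a Mediator subunit, and of RpL15, 4367 kb inside the boundary. Pericentric X began with a gap, because no candidate lay between chrX:21635457, near the piRNA cluster flamenco, and chrX:22443918, a stretch of 808 kb. The last 98.1 kb of chromosome 4, which is 84.5% annotated transposon, held few: replicate 1 had 3 candidates there, and the pooled list and the other replicates had 0.

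The candidates on either side of each boundary ranged in signal from 42.0 to 156, beside a median of 53.2 over the pooled list. Signal here is the authors' own value per peak, used to rank peaks within 1 list. On 2L the last candidate outside, near CG2528, had a signal of 48.9, and the first inside, near tio, 103. On 3L the pair near lncRNA:CR44688 and lncRNA:CR45661 had 70.6 and 55.9. On 3R the first inside, near beta-Man, had 70.5, and the first outside, near CG14636, had 156 and was an IDR peak. On X the candidates near flamenco and CG14621 had 42.0 and 50.4.

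A larger share of chromosome 4 candidates than of the rest was on the IDR list. On chromosome 4 it was 22 of 100 (22.0%, 95% Wilson interval 15.0 to 31.1%), and in the 4 pericentric regions 12 of 118 (10.2%, 5.91 to 16.9%). Together this made 34 of 218 (15.6%, 11.4 to 21.0%), against 9.84% of the 29782 other candidates and 9.88% of the whole pooled list. These intervals cover the sampling of peaks only. By region the counts were 4 of 26 on 2L, 3 of 30 on 3L, 3 of 14 on 3R and 2 of 48 on X, with intervals that all held the 9.88% of the whole list.

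The replicates gave chromosome 4 the same direction but not the same size. Among chromosome 4 candidates, 17.2% were in the strongest set of replicate 1, 10.4% in that of replicate 2 and 20.0% in that of replicate 3. Over each whole list the strongest set made up 10.5% in replicate 1, 9.88% in replicate 2 and 9.88% in replicate 3. The difference from the candidates elsewhere was 5.80 ± 4.86 percentage points (SD, n = 3; higher in 3 of 3 replicates, two-sided exact permutation p = 0.25, the smallest possible), and in replicate 2 alone it was 0.556 points. For the pericentric regions the shares were 8.15, 6.40 and 7.87%, lower than elsewhere in 3 of 3 replicates, by -2.61 ± 0.783 points (SD, n = 3, exact permutation p = 0.25). For all members together the difference was 0.976 ± 3.06 points (SD, n = 3, exact permutation p = 1), and without replicate 3 it changed sign. When the IDR list was replaced by pooled candidates found in the strongest sets of the 2 remaining replicates, chromosome 4 had 10% without replicate 1, 9% without replicate 2 and 7% without replicate 3, against 5.59, 4.98 and 5.92% of the rest.

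**Figure D2:**
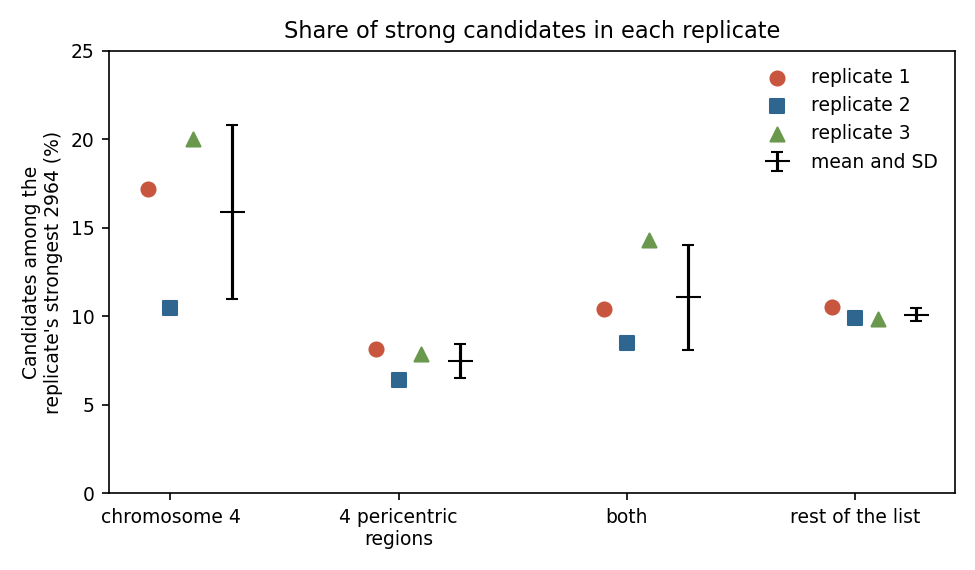
Percent of candidates that were among the 2964 strongest of each replicate's list (y axis), for chromosome 4, the 4 pericentric regions, both together and the rest of the list, with each replicate as a symbol and the mean and SD as a bar. Chromosome 4 spans 10.4 to 20.0% and the pericentric regions 6.40 to 8.15%, while the rest stays between 9.85 and 10.5%.

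None of the members was among the 100 strongest candidates of the pooled list, and 8 were among the 1000 strongest, beside the 218 of 30000 that they were of the whole list. The strongest was an intergenic summit at chr4:424809, 1258 bp upstream of lncRNA:CR43437, with a signal of 322 and rank 180. It ranked 147 in replicate 1, 255 in replicate 2 and 313 in replicate 3, so its rank percentile of 99.2 ± 0.264 (SD, n = 3) was the steadiest of the 30 IDR members matched in every replicate. Its peak, chr4:424718-424894, was 177 bp wide, and it was the 1 member narrower than 404 bp, the width of all but 244 of the 30000 pooled entries. Of the other IDR peaks, 242 of 2930 were narrower. Its sequence, the first printed above, held no CGATA in the 101 bases around the summit.

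The next strongest members lay at tio, Asator and Gyf. The peak at chr2L:22024621 lay in the 3' untranslated part of tio, which encodes a zinc-finger transcription factor, with a signal of 274 and ranks of 1503, 257 and 165 in replicates 1, 2 and 3. Asator, which encodes a tau-tubulin kinase, had a peak of signal 235 that lay 706 bp upstream of a start site and in its own intron, ranked 1927, 751 and 155. The promoter of Gyf, which encodes a GYF-domain protein, had a signal of 233 and ranks of 450, 1233 and 1058. All 3 were in the strongest set of every replicate.

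A pair of peaks met at the converging ends of Cals, which encodes a calsyntenin of the cadherin family, and sv, the fly Pax2 gene. Their summits, chr4:1113328 (signal 225) and chr4:1113089 (signal 193), were 239 bp apart and both lay in 3' untranslated sequence. The first was matched at ranks 720, 301 and 2694, and the second in replicate 3 alone, at rank 516, so the second had no summit of its own in replicates 1 and 2. Their intervals of 404 bp overlapped. With the peak at tio, 3 of 34 IDR members (8.82%, Wilson interval 3.05 to 23.0%) lay in 3' untranslated sequence, against 20 of 2930 other IDR peaks (0.683%). The interval counts the overlapping pair as separate peaks.

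Both Pax6 genes carried an IDR peak. At toy (twin of eyeless) the summit lay 113 bp upstream of the start site, with a signal of 222 and ranks of 2136, 845 and 369. At ey (eyeless) it lay 776 bp upstream, with a signal of 197 and ranks of 810, 741 and 2053, and the candidate at the ey promoter itself had 108 and was not an IDR peak. The window at ey, printed above, held the DRE word and further CGATA words.

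On 3L and X the strongest members were at promoters, and on 3R they were not. MED21 on 3L had a signal of 185, ranked 318 in replicate 1 and 5646 in replicate 3, and had no match in replicate 2. Usp2 on X, which encodes a ubiquitin protease, had a signal of 182 and ranks of 1249, 1082 and 1345, inside the strongest set each time. On 3R the 3 IDR peaks had signals between 120 and 129, and none was at a promoter. The strongest of them, at chr3R:3374313, lay 51503 bp from the start of spok, a gene of ecdysone synthesis, and ranked 1051, 7769 and 3326.

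Some candidates fell just short of the list. The lowest signals among members on it were 114.9 at ci and 114.9 at gw. The strongest member not on it in each region was, in order of signal, an intergenic summit on 3R nearest to CG41128 (114), the promoter of Sox102F (114), the promoter of Clamp (110), whose product is a zinc-finger protein of dosage compensation, the promoter of Coa7 on X (110) and that of Dbp80, a DEAD-box helicase gene on 3L (104). Clamp and Sox102F each had an IDR peak nearby as well, 562 bp downstream and 678 bp upstream of the start site. The Dbp80 candidate was matched in replicate 1 alone, at rank 1349.

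The support of IDR members by the replicates was less even than that of other IDR peaks. Of the 34, 30 (88.2%) were matched in every replicate, close to the 90.1% of the others. In the strongest set of every replicate were 9 (26.5%, Wilson interval 14.6 to 43.1%), against 42.6% of the others, which lies within that interval. The median pooled signal was 142 for the IDR members and 158 for the other IDR peaks, and its part in this support was not tested. By replicate, 26, 15 and 21 of the 34 were in the strongest sets of replicates 1, 2 and 3, and the share in replicate 2 was 44.1% against 76.3% of the other IDR peaks. Among the 30 matched everywhere, the highest rank percentile was in replicate 1 for 15, in replicate 2 for 4 and in replicate 3 for 11, whereas for the other IDR peaks it fell almost evenly, on 879, 866 and 896. The SD of the 3 percentiles had a median of 6.92 over the 30 members and 3.42 over the others.

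**Figure D3:**
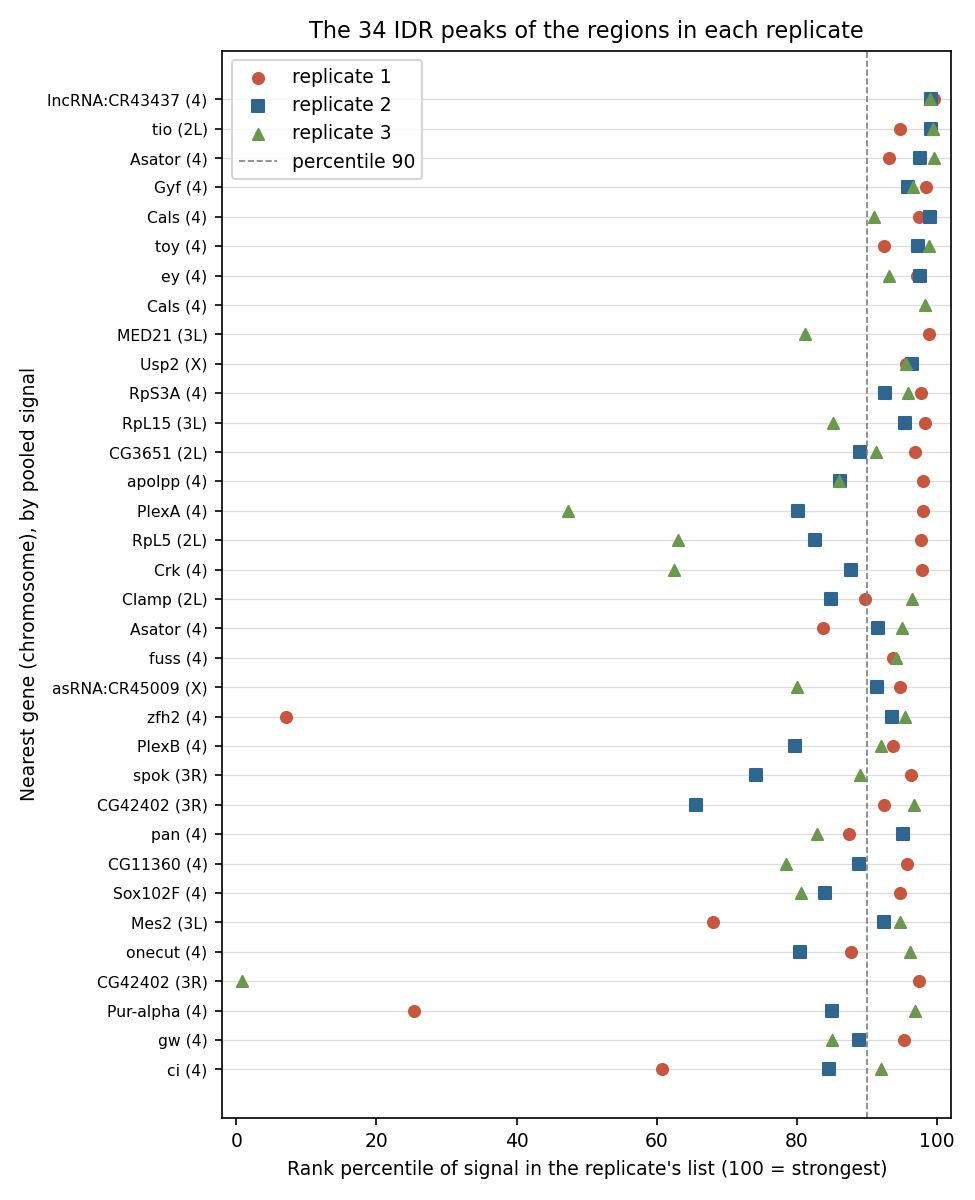
Rank percentile of signal in each replicate's list (x axis, 100 is strongest) for the 34 IDR peaks of the regions, ordered by pooled signal and labelled with the nearest gene and its chromosome. A missing symbol means no summit within 200 bp in that replicate. The rows from the top down to ey sit above percentile 90 in every replicate. Single replicates fall far to the left lower down, such as replicate 1 at zfh2 (7.04) and replicate 3 at PlexA (47.4).

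A promoter was taken as 500 bp either side of an annotated start site. At promoters lay 19 of 34 IDR members (55.9%, Wilson interval 39.5 to 71.1%), against 71.2% of the other IDR peaks. Among members not on the list it was the other way, with 91 of 184 (49.5%) at promoters against 29.8% of other such candidates, and with 21 (11.4%) in coding sequence against 23.2%. Intergenic sequence held 9 of 34 IDR members (26.5%) and 8.33% of the other IDR peaks. No IDR member was in coding sequence, and 0 of 34 allows a share of up to 10.2% by the Wilson interval. In the strongest sets of the replicates, 74.5, 50 and 51.9% of the region candidates were at promoters, against 73.0, 69.5 and 68.4% elsewhere. The difference of -11.5 ± 11.4 points (SD, n = 3) was negative in replicates 2 and 3 and positive in replicate 1, with an exact permutation p of 0.5.

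Where an IDR peak lay at a promoter, its summit was mostly just upstream. Of the 19, 17 were upstream of the start site, with a median offset of -41 bp. Of the other promoter IDR peaks 1539 of 2087 (73.7%) were upstream, with a median of -44 bp. Another 6 lay between 500 and 1000 bp from a start site, at Asator (2 peaks), ey, Clamp, pan and Sox102F. With promoters taken as 1000 bp either side, 25 of 34 IDR members (73.5%) counted, against 79.7% of the others. With 250 bp it was 19 of 34 (55.9%) against 63.1%, so the difference was wider at 500 bp than at either other window.

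**Figure D4:**
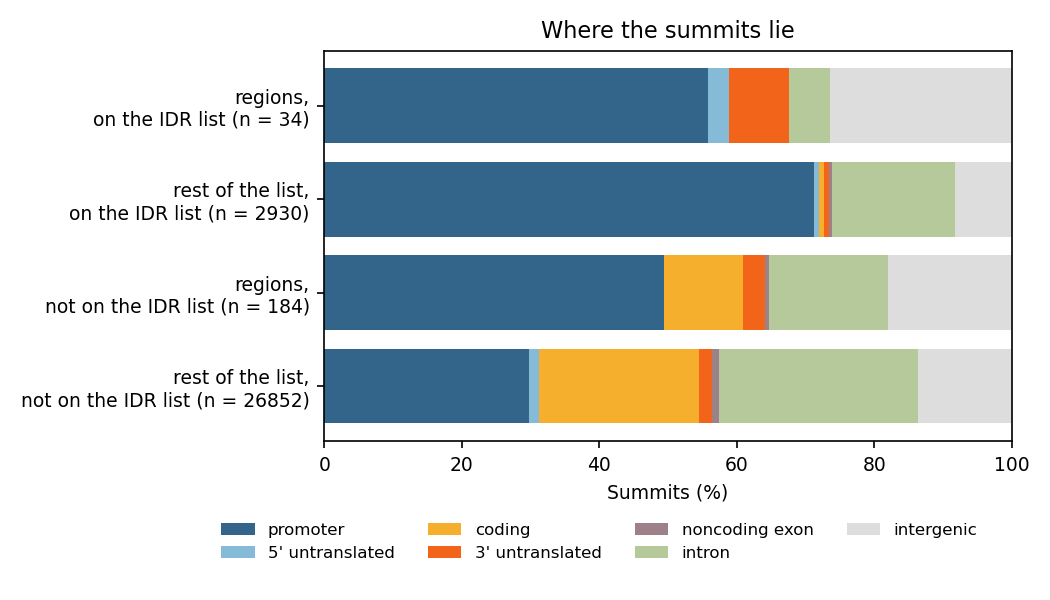
Percent of summits (x axis) in each kind of annotated sequence, for candidates of the regions and of the rest of the pooled list, split by the IDR list. Among IDR peaks the regions show less promoter (55.9 against 71.2%) and more intergenic sequence (26.5 against 8.33%), and among the other candidates more promoter (49.5 against 29.8%).

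Splitting the candidates by place, a comparison chosen after these values were seen, separated the 2 kinds of site. At promoters, 19 of 110 members (17.3%, Wilson interval 11.3 to 25.4%) were on the IDR list, against 20.7% of other promoter candidates. The regions differed here, with 12 of 45 (26.7%, 16.0 to 41.0%) on chromosome 4 and 7 of 65 (10.8%, 5.32 to 20.6%) in the pericentric regions. Outside promoters it was 15 of 108 (13.9%, 8.60 to 21.7%), against 4.28%. In the strongest sets of replicates 1, 2 and 3 it was 3.64, 7.86 and 13.4%, against 4.06, 4.54 and 4.70% of the rest. This difference was 3.87 ± 4.59 points (SD, n = 3, exact permutation p = 0.5), and replicate 1 was below the rest. On chromosome 4 alone 10 of 55 candidates outside promoters were on the list (18.2%, 10.2 to 30.3%). In the pericentric regions it was 5 of 53 (9.43%, 4.10 to 20.3%). With promoters taken as 1000 bp either side, 12.5% of the 40 chromosome 4 candidates outside them were on the list, against 3.89% of the rest. With 250 bp it was 15.9% of 63, against 4.82%. In the replicates, 8.57, 12.7 and 17.0% of chromosome 4 candidates outside promoters were in the strongest set, above the rest in 3 of 3 replicates by 8.31 ± 3.89 points (SD, n = 3, exact permutation p = 0.25). For pericentric candidates outside promoters this difference was 0.377 ± 3.48 points (SD, n = 3, exact permutation p = 1). At promoters the difference for chromosome 4 was -1.94 ± 9.16 points (SD, n = 3, exact permutation p = 1), and replicate 2, at 7.94%, was below the other replicates at 28.8 and 23.4%. With pooled candidates found in the strongest sets of both remaining replicates, chromosome 4 promoter candidates fell below the rest whichever replicate was left out, at 8.89% without replicate 1, 8.89% without replicate 2 and 6.67% without replicate 3 against 11.8, 10.9 and 12.8%.

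**Figure D5:**
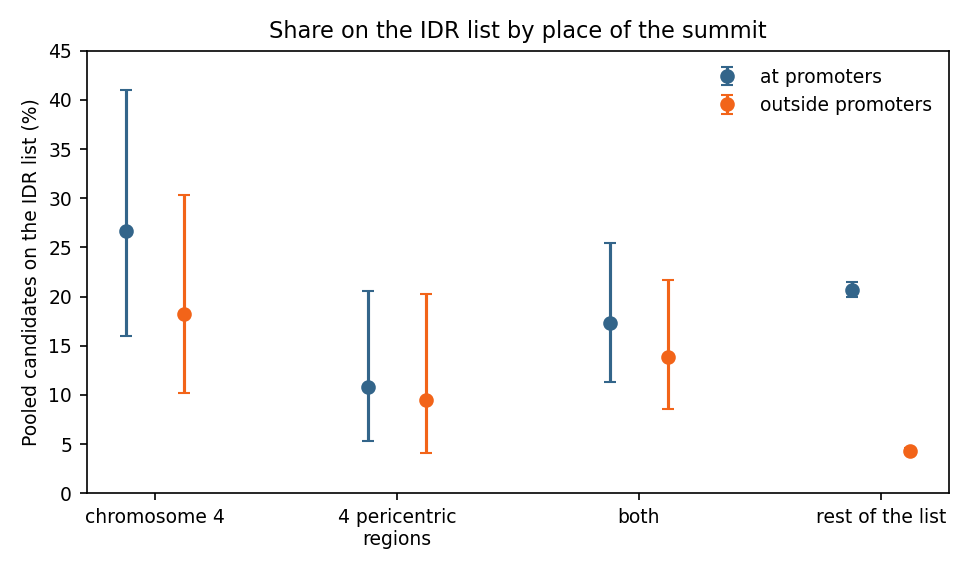
Percent of pooled candidates on the IDR list (y axis) at promoters and outside them, with 95% Wilson intervals that cover the sampling of peaks only. Outside promoters chromosome 4 stands at 18.2% and the rest of the list at 4.28%, while at promoters chromosome 4 stands at 26.7%, the pericentric regions at 10.8% and the rest at 20.7%.

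Counted by gene, fewer genes of the regions carried an IDR peak. On chromosome 4, 16 of 118 genes (13.6%, Wilson interval 8.52 to 20.9%) had one within 500 bp of a start site, and in the pericentric regions 12 of 266 (4.51%, 2.60 to 7.72%). Over all genes of the arms it was 15.5%, so chromosome 4 lay near that level. Of protein-coding genes it was 17.5% on chromosome 4 and 4.61% in the pericentric regions, against 18.9% elsewhere. IDR peaks at promoters numbered 12 on chromosome 4 and 7 in the pericentric regions. A single peak could thus count for several genes, which the intervals treat as separate. In the replicates' strongest sets 14.4, 4.24 and 11.9% of chromosome 4 genes had a peak, and 10.9, 4.51 and 2.63% of pericentric genes, against 16.8, 15.2 and 13.98% of genes elsewhere. Of genes with any promoter candidate, 39.0% on chromosome 4, 17.6% in the pericentric regions and 31.2% elsewhere had one on the IDR list.

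The named gene lists were chosen with earlier results of these data known, and their counts are descriptions to be read beside the 15.5% of all genes. Of 10 housekeeping genes of the regions, 4 had an IDR peak at a promoter: RpS3A (signal 179), RpL15 (178), RpL5 (147) and Tdg (118), which encodes a thymine DNA glycosylase and whose peak also lay 33 bp upstream of Pur-alpha. Another 3 had a weaker candidate. Arf4, eIF4G1 and ND-49 had none. RpS3A ranked 639, 2247 and 1252 in the replicates, inside every strongest set. RpL15 ranked 505, 1365 and 4469, and RpL5 ranked 670, 5220 and 11115, so RpL5 reached the strongest set in replicate 1 alone.

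Of 15 transcription and chromatin genes of chromosome 4, 3 had an IDR peak at a promoter, 8 had another candidate and 4 had none. The 3 were toy, onecut (121), which encodes a homeodomain protein, and ci (115), the transcription factor of the Hedgehog pathway. The next was Sox102F, at 114 not on the list. The pooled list had no promoter candidate at fd102C, Mitf or pho, the last of which encodes a DNA-binding protein of the Polycomb system, although replicate 1 had one at pho in its strongest set. The onecut peak ranked 3474, 5869 and 1147 and the ci peak 11058, 4614 and 2427, so each was in the strongest set of replicate 3 alone.

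Of 18 signalling, cytoskeleton and neuronal genes of chromosome 4, 4 had an IDR peak at a promoter, 3 another candidate and 11 none. The 4 were the semaphorin receptor genes PlexA (151) and PlexB (131), the adaptor gene Crk (144) and gw (115), which encodes the GW182 protein of miRNA silencing. The PlexA peak ranked 593, 5975 and 15787, and the Crk peak 624, 3695 and 11260. Both were in the strongest set of replicate 1 alone, and both held the DRE word shown above. The muscle gene bt, the ankyrin gene Ank and the activin ligand gene Actbeta had no promoter candidate.

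Of 15 genes known from pericentric work, 14 lay in the regions and none had an IDR peak at a promoter, beside the 4.51% of all pericentric genes that did. Candidates lay at su(f) (78.4), which encodes a factor of mRNA 3' end formation, and at Set1 (54.5), a histone methyltransferase gene. Among the 12 without one in the pooled list were AGO3, a gene of the piRNA pathway, the chitinase gene Cht10 and cta, which encodes a G protein subunit of gastrulation. By replicate, 1, 0 and 0 of the 14 had a promoter peak in the strongest set, and the 1 in replicate 1 was cta.

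Members lay in transposons less often than the share of transposons in the regions, and more often than candidates elsewhere did. Annotated transposons made up 15.9% of the sequence of the regions and 24.8% of chromosome 4. Summits lay in a transposon for 10 of 218 members (4.59%), 6 of them on chromosome 4, and for 0 of 34 IDR members, which by the Wilson interval allows up to 10.2%. Of the other IDR peaks it was 3 of 2930 (0.102%). Elsewhere transposons made up 4.78% of the sequence and held 0.201% of candidates. In replicates 1, 2 and 3, 7.96, 6.56 and 5.82% of the region candidates were in a transposon, against 0.365, 0.222 and 0.205% elsewhere (difference 6.52 ± 1.00 points, SD, n = 3, exact permutation p = 0.25). Bases that the reference marks as repeat made up 39.0% of the regions but on average 8.78% of the 201 bases around IDR members, against 14.3% around other IDR peaks. Around all members they made up 13.4%, and around all other candidates 11.8%. In the replicates' strongest sets the difference was -5.11 ± 1.99 points (SD, n = 3; negative in 3 of 3, exact permutation p = 0.25).

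The sequence around members was poorer in G and C than elsewhere. The median was 38.8% for IDR members and 41.8% for other IDR peaks, and 42.8% against 48.3% for candidates not on the list. In the strongest sets the members' median was 35.8, 42.0 and 40.3% in replicates 1, 2 and 3, against 39.3, 42.3 and 45.3% elsewhere, a difference of -2.90 ± 2.42 points (SD, n = 3; negative in 3 of 3, exact permutation p = 0.25). In replicate 2 the difference was only -0.249 points. The regions themselves are poorer in G and C: 35.2% on chromosome 4 and 39.4% over the regions, against 42.5% elsewhere. Around their annotated start sites the median was 36.3%, against 42.3% elsewhere. Its part in the difference was not tested.

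The search covered 7 words, on both strands, in the 201 bases around each summit. CGATA, which also occurs inside DRE, was in 18 of 34 IDR members (52.9%, Wilson interval 36.7 to 68.5%), 13 of them among the 22 on chromosome 4, and in 38.8% of other IDR peaks. Around annotated start sites it was in 39.6% in the regions and 34.5% elsewhere. DRE (TATCGATA) was in 3 IDR members (8.82%) and in 8.16% of the others, beside 8.99% of start sites in the regions and 5.37% elsewhere. Motif 1 (GGTCACAC) was in 0 of 34, where the Wilson interval reaches 10.2%, and in 7.24% of the others. Start sites held it in 1.15% of cases in the regions and 4.84% elsewhere.

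For the remaining 4 words the shares were as follows. GAGAG was in 9 IDR members (26.5%) and in 29.6% of the others, TATAAA in 6 (17.6%) and 19.4%, and AAAAAAA in 4 (11.8%) and 16.9%. The CTCF core AGGTGGCGC was in 1 IDR member, the intronic peak of Asator, and in 1.67% of the others. Start sites of the regions and of the other sequence held GAGAG in 17.6 and 24.5%, TATAAA in 32.9 and 26.1%, AAAAAAA in 17.4 and 17.8%, and the CTCF core in 0 and 0.139%. For all 7 words the Wilson interval over the 34 members held the share of the other IDR peaks.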

How the data were processed

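The data were lists of candidate peaks in narrowPeak format from anti-GFP ChIP of 3 replicates, a pooled list and an IDR list; the deposited descriptions say that a control was used for the candidate lists, and per the labels fragments were 200 to 800 bp. Aligner, caller and threshold of the IDR step: not given in the sources used here. Each peak's signal value is the authors' own, on a scale per list; a −log10 q is also deposited and was read but not compared. The lists hold no counts, so depth is unknown. Where nothing says that replicates came from separate crosses, p-values measure the spread between these samples.

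Lists on dm6 were read with Python 3.11.15, pandas 2.3.3 and scipy 1.17.1 and placed on Release 6 sequence with Ensembl 115 genes. Summits were matched when mutually nearest within 200 bp. The strongest set of a replicate was its 2964 entries of highest signal. GC, repeats and words were read 100 bp either side of the summit, and start sites were counted once per position. Replicate values were compared by exact permutation of signs over 3 pairs; shares have 95% Wilson intervals. Steps were tested on simulated data. Named genes were those nearest the 10 strongest IDR members, the strongest IDR and other member of each region, 4 with and up to 3 without a promoter candidate per list, and those at the boundaries. The members, lists and tests were chosen with earlier results of these data known. Alternatives were other boundaries, windows, matching, thresholds, the dm3 lists and leaving out each replicate.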

Additional observations from a re-analysis of the deposited data

Results flagged for a closer look

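Entries on sequence that dm3 keeps apart from its arms appeared in the dm3 lists, which no comparison above uses beyond chromosome 4. On heterochromatic (Het) and unplaced sequence of dm3 the pooled list held 30 entries and the IDR list 6 of 2821. Counts above 3 were flagged, which is a rule for listing them and not a test. Replicate 1 held 183 such entries, replicate 2 held 31 and replicate 3 held 22, and 64 of those of replicate 1 were on the Het part of 2R. The strongest had a signal of 214 in the pooled dm3 list and rank 667. These entries were not tied to genes. No dm3 coordinate was converted, so whether any of these entries are also members on dm6 is not known.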

How the results depend on the processing

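Of 137 alternatives over 37 results, 106 were counted as the same, 29 as moved and 2 as reversed. For differences tested over the replicates, the same meant only that the sign was kept. With arm 2R left out of the rest, the members' own value could not change, and 9.96% of the rest was on the IDR list. Otherwise it meant that the value, or its ratio to the rest of the list, stayed within the interval or spread of the main value. Leaving out replicates gave 5.50 to 6.42% of members on the list, and without replicate 3 they fell below the rest (5.50 against 5.92%). With IDR peaks above their median signal it was 5.50% against 4.94%. Leaving out replicates gave 7 to 10% on chromosome 4, above the rest (4.98 to 5.92%), and 2.54 to 4.24% in the pericentric regions, where the main value was just above the rest and each of these was below it. The strongest-set difference ranged from -0.752 to 2.16 points for all members, and chromosome 4 kept its direction (3.63 to 8.42). Promoter windows of 250 and 1000 bp gave 39.9 and 61.5% of all members, and 1000 bp gave 73.5% of IDR members. With 250 bp windows the GC difference was -5.69 points, and repeat-marked bases were 16.3% around members and 15.0% around IDR members (16.3% around other IDR peaks). Per unmarked Mb, candidate density was 5.32% (pericentric) and 8.69% (members) of the rest. By place, calls with a replicate left out took in 5.45% of members at promoters, whichever replicate it was. For those of chromosome 4 they took in 6.67 to 8.89%. All were below the rest (10.9 to 12.8%), although the main value of chromosome 4 was above it. Promoter members turned above the rest with a window of 1000 bp (18.7 against 16.1%). Of pericentric candidates outside promoters, calls with a replicate left out took in 1.89 to 5.66%, below the rest without replicate 1 (1.89 against 2.40%). The causes were not tested. Members and the rest were compared within each replicate throughout, and there was no second group to pair. Precision is limited by 34 IDR members and 3 replicates of unknown depth.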
